A study of Mus musculus with 6 samples.

Results

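The 9 genes described here, *Gas5*, *Zfas1*, *Epb41l4aos*, *Snhg1*, *Snhg3*, *Snhg5*, *Snhg6*, *Snhg8* and *Snhg12*, are noncoding hosts of small nucleolar RNAs (snoRNAs). They were taken by gene name from a table of 55367 gene names, and each of the 9 had a row. All 9 passed the filter on low counts, which left 14916 genes to test.

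SnoRNAs are short nuclear RNAs that guide chemical changes of ribosomal RNA. Those of the C/D box class direct methylation of the ribose, and those of the H/ACA box class direct the conversion of uridine to pseudouridine. In mammals most are cut out of the introns of a longer transcript, the host, after splicing. A noncoding host makes a spliced RNA with no long reading frame, which is in many cases exported, bound by ribosomes and removed by nonsense-mediated decay. Several of these hosts begin with a 5′ terminal oligopyrimidine (5′TOP) tract, as the messenger RNAs of ribosomal proteins do, and their RNA accumulates when growth stops and translation slows. *Gas5* was found in this way, as a transcript of growth-arrested cells.

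The data are RNA-seq counts from primary keratinocytes, the epithelial cells of the epidermis, isolated from mouse pups at day 2 after birth. The mice had a mixed C57BL/6 and 129/Sv background, loxP sites around exon 8 in each *Ppp1r13l* allele (the gene product is iASPP), and a tamoxifen-inducible Cre (Cre-ERT) at the ROSA26 locus. Cells of each of 3 batches were divided between a culture with tamoxifen, called iASPP KO, and a culture without it, called iASPP WT. Hydrocortisone was in the medium of all cultures. Tamoxifen was given at the first medium change, 24 h after plating, and culture went on for 4 days. The tamoxifen concentration is 1 mM in the sample labels and 1 μM in the study's methods. All 6 cultures carried the floxed alleles and Cre-ERT, and the iASPP-WT cultures received no drug, so the deletion, the drug and Cre activity cannot be told apart. Ribosomal RNA was depleted, without selection of poly(A) tails, and single reads of 42 nt were counted per gene name. The iASPP-KO libraries of batches 1, 2 and 3 held 24544822, 23556669 and 22136525 counts, and the iASPP-WT libraries held 21353368, 25157117 and 20202517.

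Levels are given as CPM, counts scaled to a library of 1000000 after edgeR's TMM scaling, and values of 3 cultures are in the order of batches 1, 2 and 3. Log2 fold changes set iASPP KO over iASPP WT and come from edgeR's quasi-likelihood fit with batch in the model, each with its standard error (SE). Adjusted p is by the Benjamini-Hochberg method over all 14916 tested genes, with a threshold of 0.05. The values of single batches are differences of log2 CPM between the 2 cultures of a batch. In bulk RNA, fewer cells of a type and less RNA per cell cannot be told apart.

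*Ppp1r13l* was measured first, as a check of the labels. Its counts were 320, 395 and 139 with iASPP KO, against 697, 1100 and 472 with iASPP WT. Each iASPP-KO culture lay below every iASPP-WT culture. The log2 fold change was −1.45 (SE 0.18, edgeR adjusted p = 0.00296).

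The keratinocyte label was checked against marker genes. The 16 keratinocyte markers together had 64491, 57874 and 49512 CPM in the iASPP-KO cultures and 70006, 65165 and 62865 CPM in the iASPP-WT cultures, with *Krt17* the most abundant. By edgeR 0 of 16 were higher and 1 was lower, against 2.17% and 1.95% of all tested genes. The 1 was *Krt17*, a keratin of wounded and cultured skin cells (log2 fold change −0.57, SE 0.14, edgeR adjusted p = 0.047). The basal keratins *Krt5*, *Krt14* and *Krt15* had log2 fold changes of −0.057, −0.022 and 1.09 (edgeR adjusted p = 0.145 for *Krt15*). At an unadjusted p under 0.05 it was 3 of 16 (16.7% of all tested genes), 2 of them higher. Negative log2 fold changes were found for 14 of 16 (49.4% of all tested genes). *Krt17* passed in 7 of 11 alternatives, and not without batch 2 (edgeR adjusted p = 0.15). Without batch 3 its log2 fold change was −0.36.

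Other cell types left smaller traces, and these varied with batch. The 12 fibroblast markers summed to 75.5, 96.4 and 598 CPM in iASPP KO and 84.6, 85.9 and 857 CPM in iASPP WT, so that batch 3 stood far above the others. *Col1a2* was the most abundant of them. By edgeR 0 of 12 were higher and 2 were lower, against 2.17% and 1.95% of all tested genes. The 2 were *Col3a1* and *Col1a2*, collagen genes of fibroblasts, with log2 fold changes of −0.87 (SE 0.18, edgeR adjusted p = 0.0269) and −0.55 (SE 0.13, edgeR adjusted p = 0.0428). At an unadjusted p under 0.05 it was 3 of 12 (16.7% of all tested genes), 1 of them, *Pdgfra*, higher with a log2 fold change of 0.81. *Pdgfra* differed by 1.29, 1.60 and −0.42 in batches 1, 2 and 3. In the fit 10 of the 12 markers were negative (49.4% of all tested genes), with a median of −0.35. In batches 1, 2 and 3 it was 6, 6 and 10 of 12. *Col1a2* did not pass when any single batch was left out, and *Col3a1* did not pass without batch 2 or without batch 3. The 8 melanocyte markers, led by *Pmel*, summed to 900.5, 434 and 1070 CPM in iASPP KO and 1132, 369 and 1057 CPM in iASPP WT, and 0 of 8 passed by edgeR, by DESeq2 or at an unadjusted p under 0.05. The 12 leukocyte and macrophage markers, led by *Cd68*, summed to 67.7, 74.3 and 86.4 CPM in iASPP KO and 45.7, 62.0 and 69.9 CPM in iASPP WT. Of the 7 tested, 1 was higher and 0 were lower by edgeR, against 2.17% and 1.95% of all tested genes. The 1 was *Csf1r*, the receptor of the macrophage growth factor CSF1 (log2 fold change 1.11, SE 0.21, edgeR adjusted p = 0.0206). It did not pass without batch 2 or without batch 1 (edgeR adjusted p = 0.112 and 0.0612). *Csf1r* was lowest in batch 3 (5.23 CPM in iASPP KO, 1.92 CPM in iASPP WT), where the sum of the list was highest. At an unadjusted p under 0.05 it was 2 of 7, each higher (16.7% of all tested genes). Log2 fold changes ran from −1.26 to 1.46, and 7 of the 12 markers had a mean under 1 CPM. *Cd3e* was at 0 in all 6 libraries. The 7 endothelial markers, led by *Egfl7*, summed to 15.9, 25.01 and 11.8 CPM in iASPP KO and 15.9, 14.3 and 18.5 CPM in iASPP WT, *Cdh5* had 0 counts in 3 of the 6 libraries, and 0 of 5 tested passed by edgeR, by DESeq2 or at an unadjusted p under 0.05. What part these cells have in the values of the host genes was not tested.

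Of the 9 host genes, 0 were higher and 0 were lower in iASPP KO by edgeR at the threshold, against 2.17% and 1.95% of all tested genes (4.12% in either direction). At an unadjusted p under 0.05, 1 of 9 was lower, *Snhg5*, against 8.09% of all tested genes, and DESeq2 called *Snhg5* alone, also lower, against 3.38% of the 12121 genes it gave an adjusted p. The log2 fold change was negative for 8 of 9 host genes, against 49.4% of all tested genes, with *Snhg1* the exception. Their median was −0.17, where that of all tested genes was 0.0057, and 30.1% of all tested genes lay below −0.17. The host genes did not move alike in the 3 batches. In batch 1 their median was 0.047 and 4 of 9 were negative (50.4% of all tested genes). In batch 2 it was −0.31 and all 9 were negative (50.1% of all tested genes), and in batch 3 it was −0.20 with 7 of 9 negative (49.3% of all tested genes), while the median of all tested genes was −0.0054, −0.00088 and 0.0034 in batches 1, 2 and 3. The 95% interval of the log2 fold change lay within −1 and 1 for each of the 9 genes, so a change of more than 1 log2 unit, a doubling or halving, was outside the interval of every host gene.

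**Figure D1:**
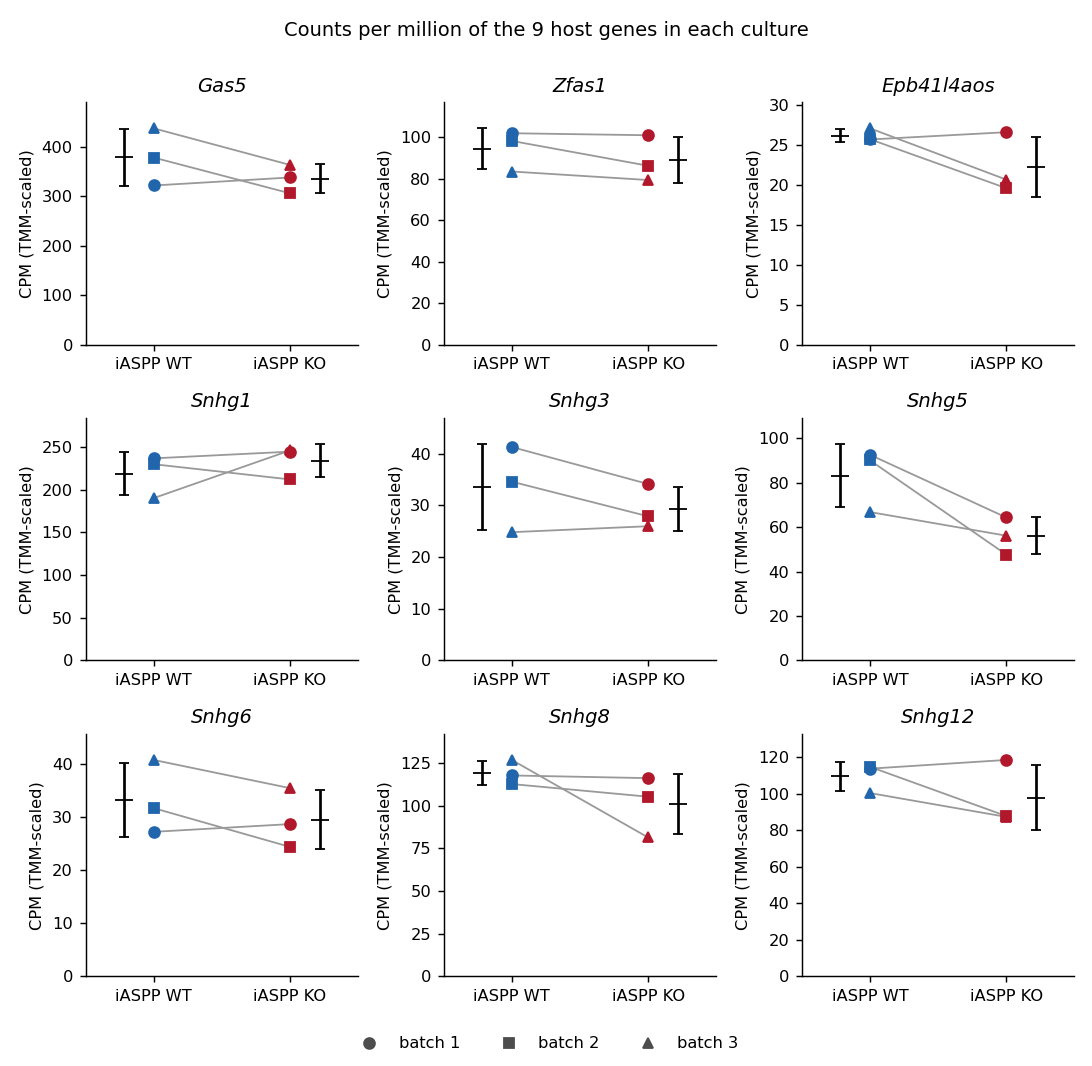
TMM-scaled CPM of each host gene (vertical axes, from 0) in iASPP-WT and iASPP-KO cultures, with lines joining the 2 cultures of a batch and bars for the mean ± SD of 3 cultures. The conditions separate only for *Snhg5*, where iASPP KO ran from 47.6 to 64.3 CPM and iASPP WT from 66.8 to 92.5 CPM.

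*Snhg5* (chromosome 9, 88495268 to 88523562, minus strand, GRCm38) is the host of the C/D box snoRNAs *Snord50a* and *Snord50b*. It had 64.3, 47.6 and 56.1 CPM in iASPP KO and 92.5, 90.0 and 66.8 CPM in iASPP WT. All iASPP-KO cultures lay below all iASPP-WT cultures, as was so for 5.46% of all tested genes, and among the host genes for *Snhg5* alone. For 0 of 9 host genes did all iASPP-KO cultures lie above all iASPP-WT cultures, against 5.26% of all tested genes. Means were 56.0 ± 8.34 CPM for iASPP KO and 83.1 ± 14.2 CPM for iASPP WT (SD, n = 3). The log2 fold change was −0.56 (SE 0.14, 95% interval −0.89 to −0.24), with −0.52, −0.92 and −0.25 in batches 1, 2 and 3. Its edgeR adjusted p of 0.0615 missed the threshold, at an unadjusted p of 0.0029. Which side of the threshold it fell on depended on the fit. It passed in 7 of the 11 alternatives, with DESeq2 giving an adjusted p of 0.0186, and over the 11 the adjusted p ran from 1.03e-05 to 0.973, the latter without the batch term. The batches weighed unequally. Without batch 3 the log2 fold change was −0.72 (edgeR adjusted p = 1.03e-05), without batch 1 it was −0.58 (edgeR adjusted p = 0.165), and without batch 2 it was −0.38 (edgeR adjusted p = 0.428).

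Among the other hosts of C/D box snoRNAs, *Gas5* (chromosome 1, 161034422 to 161038539, plus strand) is known both for growth arrest and for binding the DNA-binding domain of the glucocorticoid receptor. It had 338, 306 and 363 CPM in iASPP KO and 322, 378 and 437 CPM in iASPP WT. The conditions overlapped, and batch 1 went the other way from batches 2 and 3. Its log2 fold change was −0.17 (SE 0.12, 95% interval −0.43 to 0.094, edgeR adjusted p = 0.554; −0.28 to −0.095 with a batch left out).

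*Snhg1* (chromosome 19, 8723475 to 8726443, plus strand) is the host of *Snord22* and a classic case of a gene whose introns, not its exons, are conserved. It had 245, 212 and 246 CPM in iASPP KO and 237, 230 and 190 CPM in iASPP WT. Only in batch 2 was the iASPP-KO culture the lower one, and the conditions overlapped. edgeR gave a log2 fold change of 0.10 (SE 0.12, 95% interval −0.17 to 0.38, edgeR adjusted p = 0.765), and it ran from −0.035 without batch 3 to 0.21 without batch 2.

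*Zfas1* (chromosome 2, 167062934 to 167065862, plus strand) is transcribed away from the start of the protein-coding gene *Znfx1* and was first studied in mammary epithelium. It had 101, 86.2 and 79.3 CPM in iASPP KO and 102, 98.1 and 83.4 CPM in iASPP WT. The iASPP-KO culture was the lower one in each batch, with batch log2 differences of −0.014, −0.19 and −0.073. The log2 fold change of −0.091 (SE 0.11, edgeR adjusted p = 0.768; −0.13 to −0.039 with a batch left out) was the smallest in size of the 9.

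*Snhg6* (chromosome 1, 9941959 to 9944118, minus strand), the host of *Snord87*, had 28.7, 24.4 and 35.5 CPM in iASPP KO and 27.3, 31.7 and 40.8 CPM in iASPP WT. Its cultures kept the pattern of *Gas5*, with iASPP KO a little higher in batch 1 and lower in batches 2 and 3. For this gene the log2 fold change was −0.17 (SE 0.15, edgeR adjusted p = 0.668; −0.29 to −0.060 with a batch left out).

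Hosts of H/ACA box snoRNAs came next. *Snhg8* (chromosome 3, 123507552 to 123508404, minus strand), the host of *Snora24*, had 116, 105 and 81.4 CPM in iASPP KO and 118, 113 and 127 CPM in iASPP WT. It was lower in iASPP KO in each batch, yet nearly all of its difference came from batch 3, at −0.64 against −0.019 in batch 1 and −0.098 in batch 2. In the fit its log2 fold change was −0.25 (SE 0.14, edgeR adjusted p = 0.42; −0.37 to −0.059 with a batch left out).

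*Snhg3* (chromosome 4, 132348014 to 132353686, minus strand) is the host of the U17 snoRNAs *Snora73a* and *Snora73b*, which take part in the cleavage of the ribosomal RNA precursor. It had 34.1, 27.9 and 26.0 CPM in iASPP KO and 41.3, 34.6 and 24.8 CPM in iASPP WT. Batches 1 and 2 were lower in iASPP KO and batch 3 was not. Its log2 fold change was −0.17 (SE 0.15, edgeR adjusted p = 0.65; −0.29 to −0.10 with a batch left out).

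*Epb41l4aos* (chromosome 18, 33794892 to 33795986, plus strand), named for its place opposite *Epb41l4a*, had 26.6, 19.6 and 20.7 CPM in iASPP KO and 25.7, 25.8 and 27.1 CPM in iASPP WT. The iASPP-WT cultures lay close together and the iASPP-KO culture of batch 1 lay among them. edgeR gave a log2 fold change of −0.24 (SE 0.17, edgeR adjusted p = 0.548; −0.39 to −0.17 with a batch left out).

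*Snhg12* (chromosome 4, 132308623 to 132311024, plus strand) carries snoRNAs of both classes, *Snora16a*, *Snora44*, *Snora61* and *Snord99*, and lies 36989 bases from the nearest base of *Snhg3*, which is the 3′ end of that gene. It had 118, 87.7 and 87.2 CPM in iASPP KO and 114, 115 and 100.3 CPM in iASPP WT. The iASPP-KO culture of batch 1 was the highest of the 6 libraries, and those of batches 2 and 3 were the lowest. For this gene the log2 fold change was −0.18 (SE 0.12, edgeR adjusted p = 0.556; −0.29 to −0.067 with a batch left out). With *Snhg5*, *Zfas1* and *Snhg8*, 3 of 9 host genes were lower in iASPP KO in every batch, against 19.5% of all tested genes, and 0 of 9 were higher in every batch, against 19.5%.

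Levels were compared between host genes per 1 kb of all annotated exon, as the mean over the 6 libraries. *Snhg8* was highest at 129 ± 18.4 CPM per kb (SD, n = 6), followed by *Gas5* at 95.1 ± 12.6 and *Snhg1* at 76.3 ± 7.30. *Epb41l4aos* at 56.4 ± 7.54 came next, then *Zfas1* at 48.2 ± 5.16 and *Snhg12* at 43.1 ± 5.81, and *Snhg3* at 31.9 ± 6.42, *Snhg6* at 27.4 ± 5.22 and *Snhg5* at 19.1 ± 4.99 came last. The ranges over the libraries overlapped between all neighbours in this order except *Snhg1* and *Epb41l4aos*. The order depends on the length used. Per 1 kb of exon that no other gene name on the strand shares, a measure added after the values were seen, *Zfas1* at 59.9 ± 6.42 came before *Epb41l4aos* at 56.4 ± 7.54, with overlapping ranges, and the other 7 kept their places. Annotated exon differs in kind between the genes. In *Snhg1*, *Snhg8* and *Snhg12* the annotation covers 100% of the span with exons, so that no base of the span is intron in all annotated transcripts, and in *Gas5* it covers 91.3%, against 17.4% in *Snhg3* and 12.8% in *Snhg5*. The counts of the former genes can therefore include reads from introns of their spliced transcripts.

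Over the 6 libraries the host genes did not follow one pattern. Pearson's r of log2 CPM between 2 host genes had a median of 0.38 over the 36 pairs, from −0.55 for *Snhg3* with *Snhg6* to 0.95 for *Gas5* with *Snhg6*. *Zfas1* and *Snhg3* had 0.94, and *Gas5* and *Snhg1* had −0.50. Among 8762 other tested genes with a mean of at least 10 CPM, those most like the mean log2 CPM of the 9 host genes were *Spcs2* (r = 0.99), *Cenpx* (r = 0.98), *Zfp758* (r = 0.98) and *Mrpl55* (r = 0.98), over the same 6 libraries in 3 batch pairs. *Spcs2*, a subunit of the signal peptidase of the endoplasmic reticulum, had 128, 99.5 and 107 CPM in iASPP KO and 132, 136 and 120 CPM in iASPP WT. The log2 fold changes of the 4 genes ran from −0.52 for *Cenpx* to −0.22 for *Spcs2*. With a batch left out, *Cenpx* ran from −0.72 to −0.33 and *Spcs2* from −0.31 to −0.10. By edgeR and by DESeq2 0 of these 4 passed the threshold, and *Cenpx* alone had an unadjusted p under 0.05. The 4 genes were chosen for following the host genes over these same libraries, so their direction restates that choice and is no test.

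The starts of the host genes are printed because several such hosts are known to begin with a 5′TOP tract. RefSeq starts (GRCm38.p6) were found for 7 of the 9 host genes, and *Gas5* has 2, one upstream of the other. Each line gives 20 bases before the annotated start and 30 from it, and the capitals mark a tract, defined here as a C followed by at least 4 bases that are C or T, that begins within 5 bases of the start on the transcribed strand. This definition was set after these sequences had been seen, so the share for the host genes is a description of them and no test.
Gas5 upstream start, chr1:161034581-161034630, plus strand: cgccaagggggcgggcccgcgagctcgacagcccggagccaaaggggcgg
Gas5 downstream start, chr1:161035146-161035195, plus strand: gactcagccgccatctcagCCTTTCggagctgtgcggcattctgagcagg
Zfas1, chr2:167062914-167062963, plus strand: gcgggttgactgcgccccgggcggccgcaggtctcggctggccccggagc
Snhg8, chr3:123508307-123508356, minus strand: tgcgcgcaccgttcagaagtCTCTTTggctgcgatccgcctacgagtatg
Snhg12, chr4:132308658-132308707, plus strand: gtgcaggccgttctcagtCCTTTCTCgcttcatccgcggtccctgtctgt
Snhg3, chr4:132353657-132353706, minus strand: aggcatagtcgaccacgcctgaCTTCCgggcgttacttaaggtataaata
Snhg5, chr9:88522868-88522917, minus strand: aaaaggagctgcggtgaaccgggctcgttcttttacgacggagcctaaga
Snhg1, chr19:8723467-8723516, plus strand: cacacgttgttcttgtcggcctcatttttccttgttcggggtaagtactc
A tract was present at 4 of these 8 starts, those of *Snhg8*, *Snhg12*, *Snhg3* and the downstream start of *Gas5*. Of all 32851 RefSeq starts 18.3% had one, of 68 starts of ribosomal protein genes 44.1%, of 13 starts of 5′TOP translation factor genes 38.5% and of 16 starts of other noncoding snoRNA hosts 31.2%. The lengths were 8 bases in *Snhg12*, 6 in *Snhg8* and *Gas5* and 5 in *Snhg3*. *Snhg5*, with the lowest fold change of the 9, and *Snhg1*, with the highest, both lacked a tract by this definition. A match describes these letters only, since a start can lie some bases from its annotation. The 300 bases around each start, 250 before and 50 from it, were also searched on both strands for 3 motifs. The motif TGANTCA was found at 0 of the 8 starts (7.81% of all starts), the motif CACGTG at 0 (7.15%) and the motif TATAAA at 4 (13.6%), those of *Snhg1*, *Snhg3*, *Snhg5* and *Snhg8*.

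The count table was read for the snoRNAs inside the hosts. GENCODE vM21 types 30 genes within the 9 spans, on the same strand, as snoRNAs. Of these, 25 lay wholly within annotated exons of their host, and all 25 were listed at 0 in all 6 libraries. Over the whole table the same held for 135 of 135 snoRNA genes whose whole length other gene names' exons covered, against 1082 of 1352 (80%) not covered. Reads that overlap 2 gene names on a strand were not counted by the authors' settings, so a 0 for these 25 is no measure of the snoRNA. No snoRNA of *Gas5*, *Snhg1*, *Snhg5*, *Snhg8* or *Snhg12* could therefore be read. Bases shared with another name are lost to the host as well. They make up 29.8% of the annotated exon of *Snhg3*, where *Rcc1* also overlaps, 20.9% of *Snhg1*, 19.6% of *Zfas1* and of *Snhg12*, 17.8% of *Gas5*, 15.2% of *Snhg8*, 3.96% of *Snhg5* and 0 of *Snhg6* and *Epb41l4aos*.

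**Figure D2:**
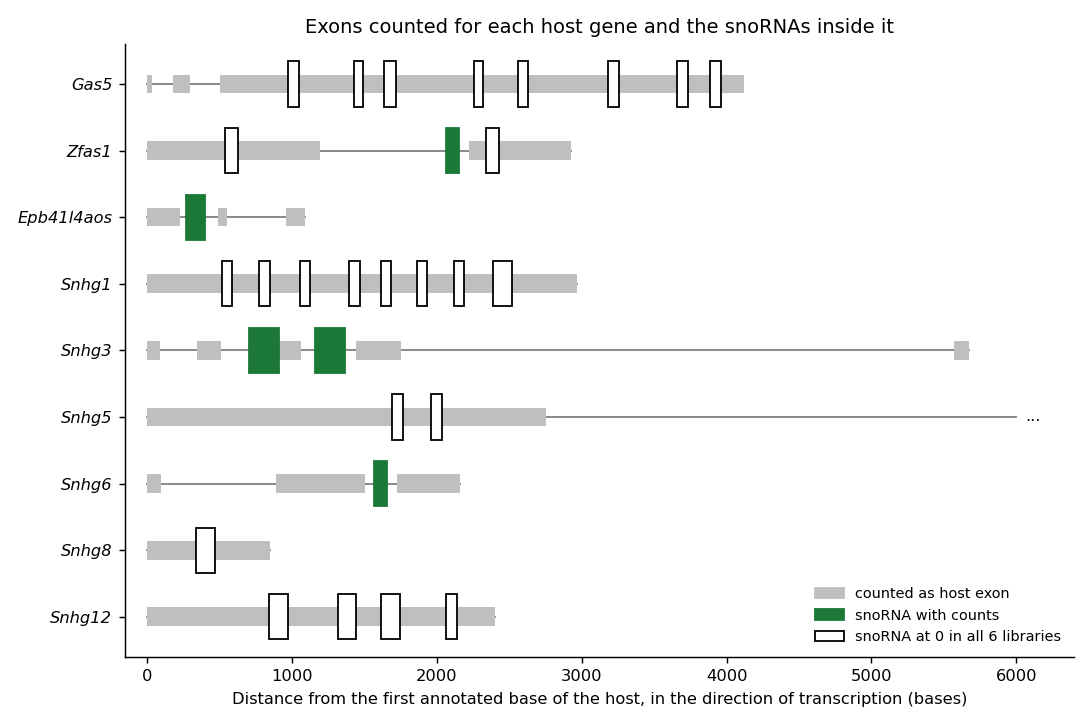
Map of the 9 host genes, with the distance from the first annotated base of the host in bases on the horizontal axis, host exons as counted in grey, snoRNAs with counts in green and snoRNAs at 0 in all 6 libraries as open boxes. The 25 open boxes all lie within grey exons, and 4 of the 5 green boxes lie in introns (*Snhg5* runs on past the axis).

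The 5 snoRNAs with counts were *Snora73a* and *Snora73b* of *Snhg3*, *Snord87* of *Snhg6*, *Gm23201* of *Zfas1* and *Gm23639* of *Epb41l4aos*. Except *Snora73a*, 77.6% of which lay in a host exon, they sat in introns, 60 bases after a host exon and 71 before the next for *Snord87*, 867 and 72 for *Gm23201*, 93 and 78 for *Snora73b*, and 39 and 87 for *Gm23639*. Printed here are 3 of them from chromosomes 1, 2 and 4, with *Snora73a* for comparison, as transcribed, in GENCODE vM21 on GRCm38. The capitals mark the C box (TGATGA) and the D box (CTGA) of *Snord87* and *Gm23201* and the ACA box near the end of *Snora73a* and *Snora73b*.
Snord87, chr1:9942463-9942549, minus strand: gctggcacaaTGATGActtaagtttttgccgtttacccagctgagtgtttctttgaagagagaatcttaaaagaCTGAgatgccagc
Gm23201, chr2:167064998-167065086, plus strand: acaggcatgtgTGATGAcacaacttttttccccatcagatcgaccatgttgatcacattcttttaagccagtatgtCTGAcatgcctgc
Snora73b, chr4:132352322-132352526, minus strand: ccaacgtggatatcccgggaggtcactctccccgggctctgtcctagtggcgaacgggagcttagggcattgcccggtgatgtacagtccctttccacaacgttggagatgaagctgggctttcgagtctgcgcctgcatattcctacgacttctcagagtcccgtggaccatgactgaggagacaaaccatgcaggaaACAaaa
Snora73a, chr4:132352775-132352979, minus strand: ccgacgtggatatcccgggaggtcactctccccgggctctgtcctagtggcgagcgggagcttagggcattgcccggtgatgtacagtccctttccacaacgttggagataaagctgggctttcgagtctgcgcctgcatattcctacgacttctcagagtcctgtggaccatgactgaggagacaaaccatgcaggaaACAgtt
*Snora73a* and *Snora73b* were identical at 198 of 205 positions (96.6%), and 35 of the 164 stretches of 42 bases in each, the length of a read, occurred in both, so reads from these stretches could not be placed.

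*Snora73b* had 5837, 3390 and 11151 CPM in iASPP KO and 3521, 3122 and 4776 CPM in iASPP WT. The iASPP-KO culture was the higher one in each batch, by 0.73, 0.12 and 1.22 on the log2 scale, but the conditions overlapped. Its log2 fold change was 0.69 (SE 0.18, edgeR adjusted p = 0.0582). It passed in 5 of 10 alternatives, among them the fits without batch 2 (log2 fold change 0.98) and without batch 3 (0.42), and not without batch 1 (edgeR adjusted p = 0.135) or with DESeq2 (adjusted p = 0.179). Its partner *Snora73a* had 26, 40 and 17 counts in iASPP KO and 49, 46 and 47 in iASPP WT. Its iASPP-KO counts were all below its iASPP-WT counts, with a log2 fold change of −0.85 (SE 0.65, edgeR adjusted p = 0.594; −1.25 to −0.52 with a batch left out), and most of its length cannot be counted apart from the host.

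*Snord87* had 98.8, 26.4 and 37.9 CPM in iASPP KO and 34.3, 16.9 and 29.5 CPM in iASPP WT. Batch 1 of iASPP KO stood well above the other 5 libraries, and each batch was higher in iASPP KO. In the fit its log2 fold change was 0.85 (SE 0.21, edgeR adjusted p = 0.0525), and it passed in 7 of 10 alternatives, including DESeq2 (adjusted p = 0.00578). Without batch 1 it was 0.50 (edgeR adjusted p = 0.361), and without batch 2 the edgeR adjusted p was 0.1. *Gm23201*, whose name is not of the snoRNA form and which was added after the values were seen, had 201, 46.2 and 67.6 CPM in iASPP KO and 73.0, 35.8 and 57.4 CPM in iASPP WT, again with the highest value in batch 1 of iASPP KO. Its log2 fold change was 0.69 (SE 0.21, edgeR adjusted p = 0.111; DESeq2 adjusted p = 0.0215), and it passed in 3 of 10 alternatives. Without batch 1 it was 0.31 (edgeR adjusted p = 0.586).

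*Gm23639* (chromosome 18, 33795164 to 33795295, plus strand), added in the same way, had 246, 67.3 and 226 CPM in iASPP KO and 88.5, 65.6 and 79.0 CPM in iASPP WT. Batches 1 and 3 differed widely and batch 2 by 0.036 on the log2 scale. The conditions overlapped. *Gm23639* rose by a log2 fold change of 1.02 (SE 0.25, edgeR adjusted p = 0.049). Of the 5 snoRNAs with counts it was the 1 past the edgeR threshold, where 2.17% of all tested genes were higher. It did not pass with DESeq2 (adjusted p = 0.195), with robust dispersion (edgeR adjusted p = 0.297) or without batch 1 (edgeR adjusted p = 0.154). In all it passed in 6 of 10 alternatives. By the snoRNA names fixed for this count, *Snora73a*, *Snora73b* and *Snord87*, 0 of 3 tested passed in either direction with edgeR, 2 had an unadjusted p under 0.05 (16.7% of all tested genes) and DESeq2 called *Snord87*, as higher, against 3.98% of the genes it gave an adjusted p.

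In 4 of these 5 snoRNAs the log2 difference lay above that of the host in every batch. For *Snora73b* less *Snhg3* it was 1.00, 0.43 and 1.16 in batches 1, 2 and 3, and for *Snord87* less *Snhg6* 1.45, 1.02 and 0.56. *Gm23201* less *Zfas1* gave 1.47, 0.56 and 0.31, and *Gm23639* less *Epb41l4aos* 1.42, 0.43 and 1.91. These differences were not tested. SnoRNAs as a class also took more of the counts in 2 iASPP-KO libraries. Genes typed as snoRNAs held 6.58%, 4.32% and 7.62% of the counts in iASPP KO of batches 1, 2 and 3, and 4.33%, 4.29% and 4.36% in iASPP WT. Other genes with under 300 bases of exon held 4.67%, 3.98% and 4.42% in iASPP KO and 3.29%, 4.73% and 3.78% in iASPP WT, higher in iASPP KO in batches 1 and 3 and lower in batch 2. The part of library composition in these values was not tested. Per 1 kb, *Snora73b* had 25852 ± 14852 CPM (SD, n = 6), far above the 31.9 ± 6.42 of its host, and *Snord87* had 467 ± 338 against 27.4 ± 5.22 for *Snhg6*. In the study's methods RNA was extracted with the RNeasy Mini Kit, and libraries were size-selected at about 300 bp. How far these steps shape the counts of RNAs as short as snoRNAs was not tested.

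**Figure D3:**
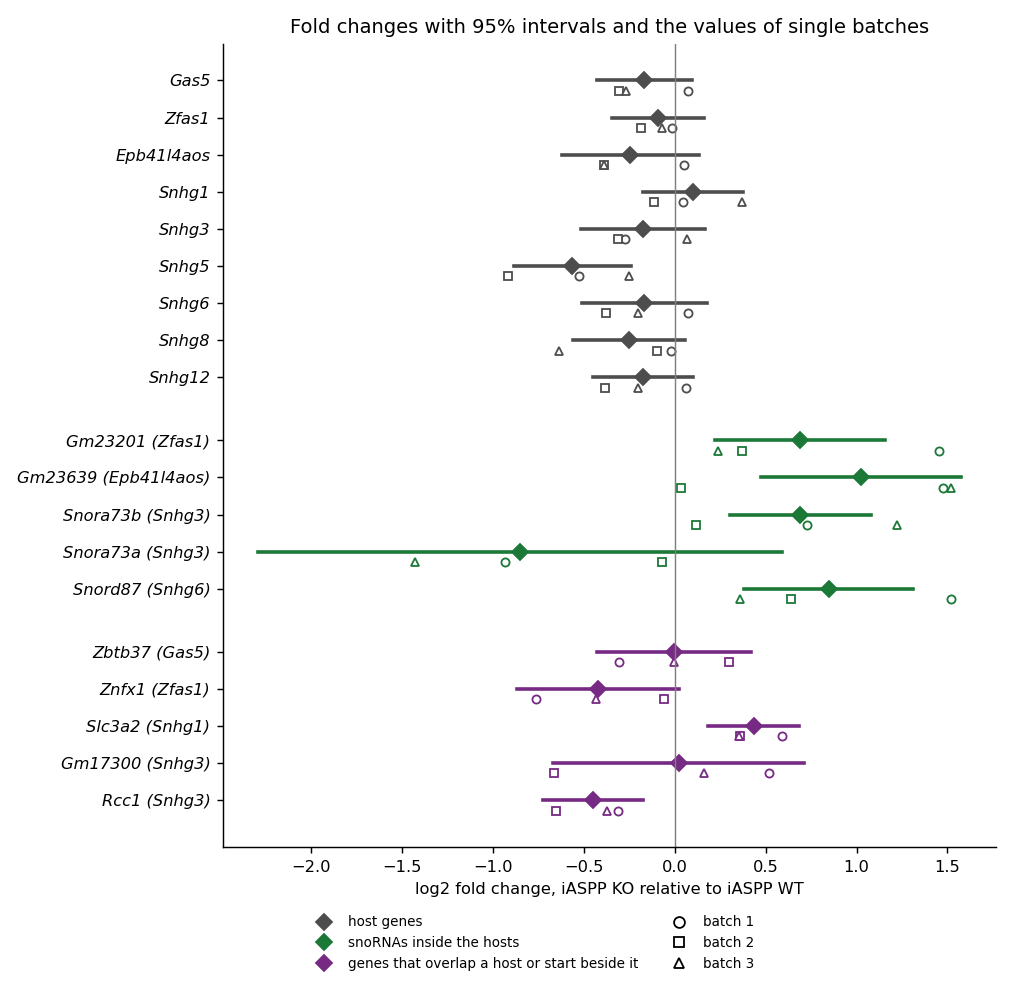
Log2 fold change between iASPP KO and iASPP WT (horizontal axis, positive where iASPP KO is higher) for the host genes, the snoRNAs with counts inside them and the tested genes that overlap a host or start beside it, with filled diamonds for the edgeR estimate, lines for its 95% interval and open symbols for single batches. Host genes lie between −0.56 and 0.10, and 4 of 5 snoRNAs lie between 0.69 and 1.02.

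Genes that overlap a host or start beside it were read next. *Slc3a2*, the heavy chain of amino acid transporters such as LAT1, begins 106 bases from the start of *Snhg1* on the other strand. It had 213, 233 and 154 CPM in iASPP KO and 141, 182 and 121 CPM in iASPP WT. It was higher in iASPP KO in each batch, while the conditions overlapped. edgeR gave a log2 fold change of 0.43 (SE 0.11, edgeR adjusted p = 0.064), and it passed in 5 of 11 alternatives, DESeq2 included (adjusted p = 0.0138).

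*Rcc1*, the nucleotide exchange factor of the GTPase Ran, overlaps *Snhg3* on the same strand and begins 81 bases from it, so reads from bases they share were not counted for either. It had 69.3, 60.1 and 62.9 CPM in iASPP KO and 86.1, 94.7 and 81.6 CPM in iASPP WT. All iASPP-KO cultures lay below all iASPP-WT cultures. For this gene the log2 fold change was −0.45 (SE 0.12, edgeR adjusted p = 0.0771), and it passed in 4 of 11 alternatives, with a DESeq2 adjusted p of 0.0499.

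*Znfx1*, which encodes a zinc finger helicase and starts 81 bases from *Zfas1*, had 15.1, 14.1 and 13.1 CPM in iASPP KO and 25.6, 14.6 and 17.7 CPM in iASPP WT (log2 fold change −0.42, SE 0.20, edgeR adjusted p = 0.331; −0.60 to −0.24 with a batch left out). It was lower in iASPP KO in each batch, with overlap between the conditions. *Zbtb37*, opposite *Gas5*, had a log2 fold change of −0.0042 (SE 0.19, edgeR adjusted p = 0.995), and *Gm17300*, opposite *Snhg3*, one of 0.021 (SE 0.31, edgeR adjusted p = 0.984). *Mcmdc2*, opposite *Snhg6*, had 0 to 15 counts in a library and was not tested. Reads were counted by strand, so genes on opposite strands do not share counts.

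Related gene lists were set beside the host genes. Of all tested genes, 2.17% were higher and 1.95% lower by edgeR, and 16.7% had an unadjusted p under 0.05. Of 15 other noncoding snoRNA hosts, 11 were tested, 1 was higher and 0 were lower, with a median log2 fold change of 0.063. The 1 was *Snhg18*, at 24.9 ± 4.35 CPM in iASPP KO and 13.1 ± 2.39 CPM in iASPP WT (SD, n = 3), a rise of 0.93 on the log2 scale (SE 0.17, edgeR adjusted p = 0.0181) with 0.81, 1.06 and 0.90 in batches 1, 2 and 3. Without batch 2 its edgeR adjusted p was 0.113. At an unadjusted p under 0.05 it was 2 of the 11, each higher. The batch medians of the 11 genes were −0.082, 0.44 and 0.37, with 6, 5 and 3 negative in batches 1, 2 and 3.

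Of 79 ribosomal protein genes, whose messenger RNAs are the classic 5′TOP transcripts, 0 passed by edgeR and 0 by DESeq2, and 6 had an unadjusted p under 0.05. Their median log2 fold change was 0.097, with 56 of 79 positive, and the batch medians were 0.24, −0.011 and 0.076, with 45 of 79 negative in batch 2. The most abundant, *Rps3*, had −0.0068. Many have processed pseudogenes, and reads that fit several places were not counted, so their levels are uncertain. Of 18 translation factors of the 5′TOP class, 0 passed by edgeR, 0 by DESeq2 and 1 at an unadjusted p under 0.05, with a median of −0.032. The elongation factors *Eef2* and *Eef1a1* had log2 fold changes of −0.0074 and 0.019. Of 13 regulators of 5′TOP translation, 0 passed by edgeR, 0 by DESeq2 and 2 at an unadjusted p under 0.05, with a median of 0.049. Among them *Eif4ebp1*, the translation repressor that mTORC1 inactivates, had 0.42 (SE 0.15, edgeR adjusted p = 0.191; 0.18 without batch 3) and *Larp1*, which binds 5′TOP tracts, had 0.077 (SE 0.13, edgeR adjusted p = 0.836).

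Of 18 factors of nonsense-mediated decay, 0 passed by edgeR, 0 by DESeq2 and 0 at an unadjusted p under 0.05. The log2 fold change was negative for 17 of 18, against 49.4% of all tested genes, and the median was −0.14. Batch medians were −0.13, −0.14 and −0.18, with 14, 13 and 16 of 18 negative in batches 1, 2 and 3. The kinase *Smg1* had −0.10 (SE 0.11), its partner in the pathway *Smg5* −0.21 (SE 0.11), and the helicase *Upf1* −0.062 (SE 0.11). With a batch left out these 3 genes ran from −0.17 to −0.018, −0.22 to −0.18 and −0.11 to −0.0039. Of 19 proteins of snoRNA particles and their assembly, 0 passed by edgeR, 0 by DESeq2 and 2 at an unadjusted p under 0.05, and 15 of 19 were negative with a median of −0.16. Their batch medians were −0.24, −0.066 and −0.028, with 15, 11 and 10 of 19 negative in batches 1, 2 and 3. The 4 most abundant, *Nop58*, *Nop56*, *Nhp2* and *Nop10*, had −0.24 (SE 0.12), −0.21 (SE 0.12), 0.15 (SE 0.14) and 0.41 (SE 0.14). With a batch left out they ran from −0.37 to −0.12, −0.34 to −0.13, −0.048 to 0.31 and 0.29 to 0.59, and *Nop58* passed without batch 3 (edgeR adjusted p = 0.0352).

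Of 12 genes that respond to glucocorticoids, 3 were higher and 1 was lower, against 2.17% and 1.95% of all tested genes. DESeq2 called 2 higher and 1 lower, against 3.98% and 3.38% of the genes it gave an adjusted p. At an unadjusted p under 0.05, 4 were higher and 2 lower (16.7% of all tested genes in either direction). The log2 fold changes ran from −0.92 to 1.02, and the median was 0.41. Their batch medians were 0.30, 0.33 and 0.076, with 5, 3 and 6 of 12 negative in batches 1, 2 and 3. *Mt1*, a metallothionein, rose by 1.02 (SE 0.21, edgeR adjusted p = 0.0262; 0.63 without batch 3), *Ddit4*, an inhibitor of mTORC1, by 0.84 (SE 0.14, edgeR adjusted p = 0.0119), and *Tsc22d3*, also called GILZ, by 0.79 (SE 0.19, edgeR adjusted p = 0.0437). The kinase gene *Sgk1* fell by 0.74 (SE 0.16, edgeR adjusted p = 0.0301), so the list did not move one way. Without batch 1, *Tsc22d3* and *Sgk1* did not pass (edgeR adjusted p = 0.123 and 0.101), and *Mt1* did not with DESeq2 (adjusted p = 0.0798) or robust dispersion (edgeR adjusted p = 0.0988).

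**Figure D4:**
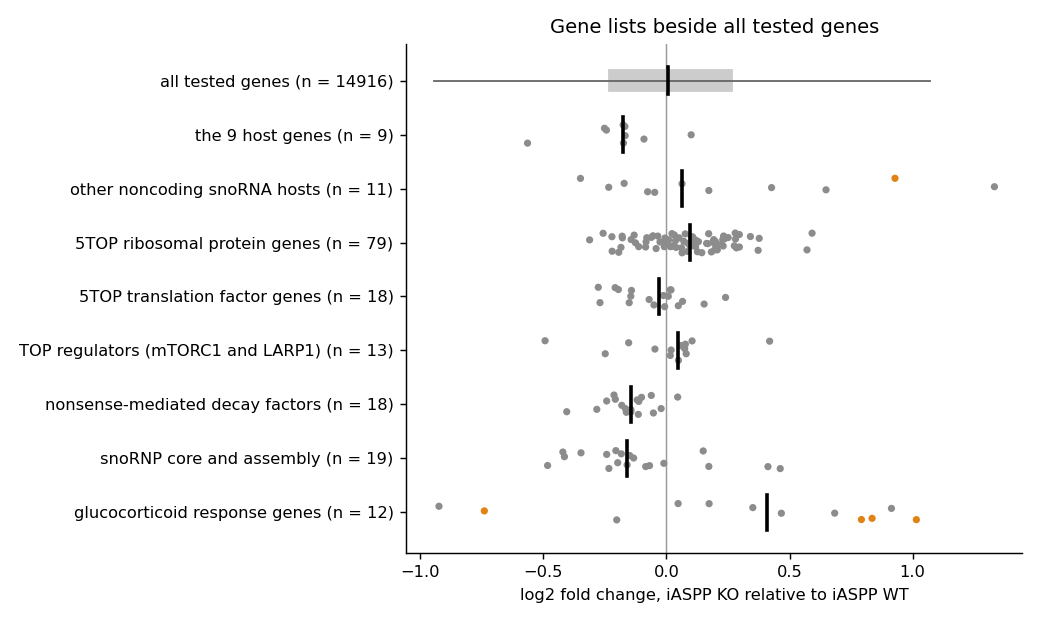
Log2 fold change between iASPP KO and iASPP WT (horizontal axis, positive where iASPP KO is higher) for each tested gene of the lists, with genes past the edgeR threshold in orange and a black bar for the median. The top row gives all 14916 tested genes as the median, the 25th to 75th percentiles (box, −0.23 to 0.27) and the 5th to 95th (line, −0.94 to 1.07), and the 9 host genes lie between −0.56 and 0.10.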

How the data were processed

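RNA of 6 primary mouse keratinocyte cultures was compared, 3 of iASPP KO and 3 of iASPP WT, grouped and paired by the batch given in the labels. Reads were aligned by the authors to GRCm38 with STAR (2.7.3 in the submitters' processing notes, after cutadapt 2.10), and the authors deposited raw counts per gene name from featureCounts 2.0.0, made on exons of GENCODE vM25 by strand, with reads on several genes or places left out. All columns of counts were used. The deposited table of the authors' own comparison, with log2 fold changes and p-values, was not used.

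The fit used edgeR 4.0.16 under R 4.3.3, with batch and condition as terms, genes kept by filterByExpr and TMM factors from 0.916 to 1.11. The SE is the absolute log2 fold change divided by the square root of F, and 95% intervals use the t distribution with the fit's total degrees of freedom (median 10.2). Values of single batches use a prior count of 2. Pairing was checked on log2 CPM less the mean of its condition, where the 2 cultures of a batch had r of 0.302, 0.368 and 0.568 over the tested genes, above any r with another batch. Cultures of one condition differed by a chi-square statistic of 39.7 to 173 per gene, far above sampling noise. Depth of 20202517 to 25157117 counts makes 3 counts equal to 0.119 to 0.148 CPM before TMM scaling, for counting error only. The fits were tested on simulated data.

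Members and lists were chosen with earlier results of these data known. Genes named are *Ppp1r13l*, the members, snoRNAs inside them, genes that overlap a member or start within 1000 bases on the other strand, at most 4 genes per list (the largest changes past the threshold, otherwise the most abundant), the basal keratins, *Pdgfra*, 2 markers at or near 0 and the 4 genes most correlated with the members. A further gene of that kind is not reported here. Gene types came from GENCODE vM21, to which 53365 of 55367 names matched. Alternatives were DESeq2 1.42.0, no batch term, other scalings and filters, genes under 300 bases left out, robust dispersion and each batch left out. Figures were drawn with matplotlib 3.10.9.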

Additional observations from a re-analysis of the deposited data

How the results depend on the processing

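The median log2 fold change of the 9 host genes stayed negative in all 11 alternatives, from −0.29 without batch 1 to −0.095 without batch 2. With no replicate block, that is without the batch pairing, 0 genes were higher and 0 lower, the host genes' median was −0.18, and 0 host genes and 0 hosted snoRNAs passed. With no filter beyond 1 count, 624 genes were higher and 491 lower. Leaving out a batch gave 169 to 793 genes higher and 117 to 662 lower, 0 to 1 host genes lower and 0 to 2 hosted snoRNAs higher. The number of host genes lower was 1, *Snhg5*, with DESeq2, DESeq2's size factors, upper-quartile scaling, no filter beyond 1 count, at least 10 counts in every library and robust dispersion. The number of hosted snoRNAs higher was 2 with DESeq2's size factors, upper-quartile scaling and no filter beyond 1 count, and 1 with DESeq2, at least 10 counts in every library and robust dispersion. Taking snoRNAs by annotated type, an alternative chosen after seeing the data, also gave 1. With genes under 300 bases left out, no count of hosted snoRNAs could be made. Of 666 single-gene values over 61 genes, 566 kept direction and side of the threshold, 29 no longer passed, 35 newly passed and 36 changed sign, 1 of them in a host gene (*Snhg1* without batch 3). None of those 36 passed in either fit. Without the block, these were *Dct* −0.045, *Eef1a1* −0.016, *Rpl4* −0.013, *Rpl8* −0.011 and *Tyrp1* −0.067. Without genes under 300 bases, these were *Eef2* 0.0015, *Rps3* 0.0022 and *Zbtb37* 0.0048. With at least 10 counts in every library, these were *Eef2* 0.0013, *Rps3* 0.0019 and *Zbtb37* 0.0046. With DESeq2, this was *Zbtb37* 0.00068. With DESeq2's size factors, this was *Zbtb37* 0.0017. With no filter beyond 1 count, this was *Zbtb37* 0.00014. With a batch left out, genes that changed sign had log2 fold changes of *Dct* −0.16 to 0.21, *Eef1a1* −0.13 to 0.21, *Eef1b2* −0.14 to 0.13, *Eef2* −0.10 to 0.093, *Egfl7* −0.067 to 0.065, *Gm17300* −0.25 to 0.35, *Larp1* −0.064 to 0.18, *Mitf* −0.051 to 0.27, *Nhp2* −0.048 to 0.31, *Rack1* −0.15 to 0.13, *Rpl4* −0.11 to 0.16, *Rpl8* −0.12 to 0.15, *Rps3* −0.053 to 0.021, *Snhg1* −0.035 to 0.21, *Tyrp1* −0.13 to 0.26, *Vwf* −1.07 to 0.15 and *Zbtb37* −0.15 to 0.15. The causes were not tested. For 8 of 9 host genes the 95% interval contained 0, so at this depth and with 3 pairs their changes were within the error of the fit.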
